A study of Homo sapiens with 6 samples.

Results

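The 95 genes described here encode subunits of the mitochondrial respiratory chain and the ATP synthase, the machinery of oxidative phosphorylation. They were taken from the 60780 rows of the deposited gene table as the rows with an Ensembl identifier, at least 1 Gene Ontology annotation and a symbol of the chain: MT-ND, MT-CO, MT-CYB and MT-ATP for the 13 genes of mitochondrial DNA, and NDUF, SDH, UQCR, COX and ATP5 for the 82 genes of nuclear chromosomes. The rule used no measured value. It gave 43 genes of complex I, 4 of complex II, 10 of complex III, 16 of complex IV and 20 of complex V, with NDUFA4 counted in complex IV. The symbol rule also took in 2 genes that are not subunits and were kept apart from the complexes, ATP5IF1, an inhibitor of the ATP synthase, and ATP5MF-PTCD1, a readthrough of a subunit gene into its neighbour.

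The RNA came from LX-2 cells, an established line derived from human hepatic stellate cells, the pericytes of the liver that turn into collagen-producing myofibroblasts when activated. For 24 h the cells had been kept in conditioned medium from HCT116, an established line of human colorectal carcinoma, which carried either an empty vector (Vector-CM, n = 3) or a lentiviral construct that overexpresses FGFBP1, a secreted carrier protein of fibroblast growth factors (FGFBP1-CM, n = 3). All 6 libraries were thus exposed to tumor-conditioned medium, and LX-2 cells without it were not analysed here. The labels number the replicates but do not say whether they were separate cultures, so the p-values measure the spread between these libraries, which may be technical.

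Electrons from NADH enter the chain at complex I and those from succinate at complex II, pass through complex III to complex IV, which reduces oxygen, and complex V uses the resulting proton gradient to make ATP. Mitochondrial DNA is transcribed from both strands into long precursors, from which the ribosomal RNAs, the messenger RNAs of the chain and the transfer RNAs that lie between them are cut out. The remaining subunits are made from nuclear genes and imported, complex II entirely so, and many of these nuclear genes carry promoter elements for the factors NRF1 and GABP. Activated stellate cells are known to shift their energy metabolism as they turn into myofibroblasts.

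Total counts ranged from 14003780 to 18508113 per library, and a count of 0 allows up to 3 counts, or 0.158 to 0.217 CPM, the count scaled to a common library size. Such floors and the intervals of shares below cover counting error only. The stellate markers were present at 2830 to 3939 CPM in sum, with 11 of 12 detected and LRAT at 0 in all libraries, and all 10 that could be tested were lower in FGFBP1-CM, TIMP1 at an adjusted p of 0.0465 in edgeR's quasi-likelihood test. Hepatocyte markers summed to 84.1 to 87.7 CPM in Vector-CM and 58.7 to 71.99 CPM in FGFBP1-CM, and 3 of the 6 that could be tested passed the adjusted threshold, all lower: APOB (log2 fold change -3.59), FGA (-3.82) and ALB (-2.44), each under 5 CPM in every library. Most of the sum was CPS1 and SERPINA1, which did not pass it. Colorectal epithelial markers summed to 225 to 249.8 CPM and 215 to 234 CPM, which overlapped. Most of that sum was KRT8 (145 to 172 CPM) and KRT18 (55.7 to 66.6 CPM). EPCAM was at 0.223 to 0.809 CPM and CDH1 at 0.289 to 0.439 CPM. Of the 15 colorectal markers, 10 could not be tested and 6 never exceeded 3 counts in a library. The library FGFBP1-CM 1 stood apart, at 34.2 on the first principal component, against 3.799 and 5.02 for the other FGFBP1-CM libraries and -16.1 to -11.6 for Vector-CM. The part that these differences play in the values of the chain genes was not tested.

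The genes whose sequence bears on the counts are shown here. The ends of MT-ATP8 and MT-ND4L (GRCh38, plus strand of mitochondrial DNA) overlap the start of the next gene, and capitals mark the bases that the neighbours share, 46 with MT-ATP6 and 7 with MT-ND4.
MT-ATP8 end, chrM:8513-8572: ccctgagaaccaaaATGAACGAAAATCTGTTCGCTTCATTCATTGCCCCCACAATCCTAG
MT-ND4L end, chrM:10707-10766: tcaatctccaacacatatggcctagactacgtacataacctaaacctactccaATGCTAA
In both overlaps the capitals open with the start codon of the downstream gene. The shared bases make up 22.2% of the 207 bases of MT-ATP8 and 2.36% of the 297 bases of MT-ND4L, and reads over them cannot be assigned to a single gene. Between and beside the messenger RNAs lie the transfer RNA genes, of which 3 are shown because their log2 fold changes were the highest of those tested. Their anticodons are in capitals.
MT-TG (glycine), chrM:9991-10058, plus strand: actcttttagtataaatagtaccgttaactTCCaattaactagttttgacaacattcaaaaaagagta
MT-TR (arginine), chrM:10405-10469, plus strand: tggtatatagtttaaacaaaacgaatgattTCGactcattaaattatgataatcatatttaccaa
MT-TH (histidine), chrM:12138-12206, plus strand: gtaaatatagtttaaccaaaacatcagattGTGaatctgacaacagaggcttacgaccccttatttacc
MT-TG begins at the base after the end of MT-CO3 (chrM:9207-9990), MT-TR follows MT-ND3 (chrM:10059-10404) and MT-TH follows MT-ND4 (chrM:10760-12137).

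The levels of the 2 genomes' transcripts were compared per length. In FPKM, the authors' fragment count scaled to gene length and library size, the median over the 13 mitochondrially encoded genes was 1136 and that over the 77 tested nuclear members was 20.6. The ratio of these median levels was 55.0. It fell to 27.7 when CPM was divided by the length of a principal transcript, because the lengths implied by the FPKM of the nuclear genes were a median 1.96 times that transcript, and for 18 of 82 at least 3 times, whereas all 13 mitochondrial lengths equalled the annotated gene. The genome difference therefore keeps its direction on both scales, while its size depends on which exons are counted as the gene.

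**Figure D1:**
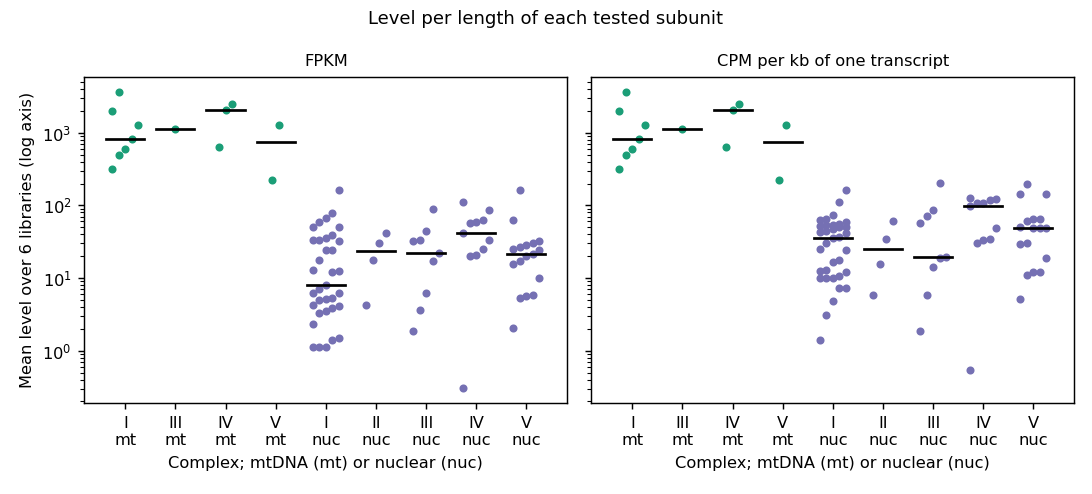
Mean level of each tested subunit over the 6 libraries on a log axis, in FPKM (left) and in CPM per kilobase of a principal transcript (right), by complex and by genome, with the median as a line. The mitochondrially encoded subunits lie between 224 and 3633 FPKM and the nuclear ones between 0.302 and 163 FPKM.

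Within mitochondrial DNA, FPKM levels ran from 224 for MT-ATP8 to 3633 for MT-ND4L, although each of these short genes shares its messenger RNA with its overlapping neighbour. MT-ND4L was at 0.370 to 0.413 of the counts of MT-ND4, and MT-ATP8 at 0.0505 to 0.0577 of those of MT-ATP6. For both pairs the ratios of the groups overlapped. Among the nuclear members the highest FPKM levels were those of NDUFS5, an accessory subunit of complex I (163), ATP5F1B, the catalytic beta subunit of the ATP synthase (163), COX8A, a small subunit of complex IV (111), and UQCRH, the hinge protein of complex III (90.0). Per kilobase of a principal transcript UQCRH was the highest nuclear member, at 200.4 CPM. Of complex II, the level was 41.1 FPKM for the membrane anchor SDHC, 29.99 for the iron-sulfur subunit SDHB, 17.5 for the anchor SDHD and 4.23 for the flavoprotein SDHA. This order depends on the length used, since per kilobase of a principal transcript it was 60.6 CPM for SDHB, 34.1 for SDHD, 15.6 for SDHA and 5.78 for SDHC. The transcript taken for SDHC has 13566 bases, while its FPKM implies 1902, so its low value on this scale rests on that transcript.

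Several nuclear subunits were counted at low levels, and members that share exon bases with another gene had lower levels in median. The 20 tested members with at least 100 exon bases shared on the same strand had a median of 12.6 CPM per kilobase of transcript, and the 53 that share none on that strand had 48.2. NDUFA7, an accessory subunit of complex I whose exons share 456 bases with a readthrough gene, was between 0.202 and 0.633 CPM and could not be tested. NDUFA11, NDUFA13 and NDUFB8, which share 467, 437 and 675 bases with such genes, were at 1.11, 1.13 and 3.32 FPKM. Whether counting used the strand was not given in the sources used here, and reads that fall on 2 genes are discarded or split by most counters, so the levels of these members are uncertain.

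Several isoforms known from other tissues were at or near the floor. COX7A1, the heart and skeletal muscle form, had 0.126 to 0.245 CPM, while its counterpart COX7A2 had 105 to 122 CPM. COX8C was between 0 and 0.202 CPM against 46.4 to 62.9 CPM for COX8A. COX6A2, the muscle form of COX6A1, had 0 counts in all 6 libraries, and COX7B2, the testis form of COX7B, had 1. These last 2 genes carried no annotation in the table and were not members. ATP5MGL and the readthrough ATP5MF-PTCD1 were also below the filter on low counts, which left 90 of the 95 genes for the test, all 13 mitochondrial genes among them. Subunit c, which forms the rotor ring of the ATP synthase, is encoded by 3 genes with the same mature protein, of which ATP5MC2 was highest (86.3 to 105 CPM), ATP5MC3 next (62.2 to 68.3 CPM) and ATP5MC1 lowest (37.7 to 42.9 CPM), with no overlap between them in any library.

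The groups were then compared to ask whether the medium of FGFBP1-overexpressing tumor cells changes the chain in stellate cells. None of the 90 tested members passed an adjusted p of 0.05 in edgeR's quasi-likelihood test, where 0.120% of all 16707 genes tested did (20 genes, 9 higher and 11 lower in FGFBP1-CM). The lowest adjusted p of a member was 0.0568, for MT-CO3. At an unadjusted p under 0.05, 12 members were higher, or 13.3% of those tested against 11.1% of all genes, and 8 were lower, or 8.89% against 10.7%. By the counts of members whose groups do not overlap, 11 were higher (12.2%, against 12.8% of all genes) and 8 were lower (8.89%, against 13.2%). All members considered, these shares were close to or below the background of all genes.

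The 2 genomes divided these members unevenly. Of the 13 mitochondrially encoded genes, 8 were higher at an unadjusted p under 0.05 (61.5%, against 11.1% of all genes) and none was lower. Without overlap of the groups, 5 were higher (38.5%, against 12.8%). Of the 77 tested nuclear members, 4 were higher (5.19%, against 11.1%) and 8 lower (10.4%, against 10.7%) at that p. Without overlap, 6 were higher (7.79%, against 12.8%) and 8 lower (10.4%, against 13.2%). The nuclear shares higher were thus below those of all genes, and the share lower at that p was near the background. The median log2 fold change was 0.22 over the mitochondrially encoded genes and 0.0032 over the nuclear members, beside 0.0032 over all genes tested. The mitochondrially encoded genes other than MT-ND6, which lies on the other strand, are cut from common precursors and are not independent of each other. These medians therefore describe the lists and carry no test.

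**Figure D2:**
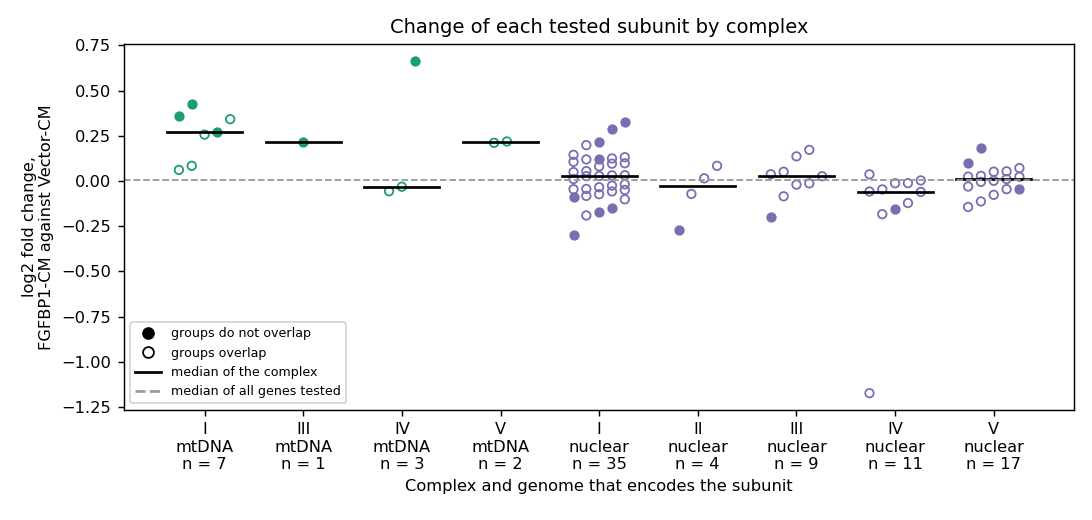
Log2 fold change (FGFBP1-CM against Vector-CM) of each tested subunit by complex and genome. Filled points are genes whose groups do not overlap, the black lines are medians, and the dashed line is the median of all genes tested at 0.0032. The genes of mitochondrial DNA (mtDNA) reach 0.67 and only MT-CO1 and MT-CO2 lie below 0, MT-CO2 at 0.0010 with library size only, while the nuclear genes lie on both sides of the line, with COX6B2 at -1.17.

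MT-CO3 encodes 1 of the 3 core subunits of cytochrome c oxidase that are made in the mitochondrion. Its level was 347, 426 and 370.1 CPM in Vector-CM and 783, 550.2 and 480.0 CPM in FGFBP1-CM. The groups did not overlap, and the highest value was in FGFBP1-CM 1. The log2 fold change was 0.67 (SE 0.14), with an adjusted p of 0.0568 in edgeR's quasi-likelihood test. Without FGFBP1-CM 1 it was 0.44, with an adjusted p of 0.0305 in that test. In that run 0.421% of all genes passed the threshold, against 0.120% with all libraries. Leaving out any Vector-CM library left no member past it. MT-CO1 and MT-CO2, the other core subunits, were at 3025, 3524 and 3130 CPM and at 1684, 1812 and 1668 CPM in Vector-CM. They were at 3010, 3397 and 2900 CPM and at 1558, 1899 and 1596 CPM in FGFBP1-CM. Both overlapped between the groups, with log2 fold changes of -0.06 (SE 0.08) and -0.03 (SE 0.08), the latter turning to 0.0010 with library size only. The ratio of MT-CO3 to MT-CO1 counts was 0.115 to 0.121 in Vector-CM and 0.162 to 0.260 in FGFBP1-CM, without overlap. This pair was chosen after its values were seen, and the ratio restates the difference between the fold changes of the genes.

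The 7 complex I genes of mitochondrial DNA all had log2 fold changes above 0. MT-ND1, which encodes the core subunit at the base of the membrane arm, was at 380.2, 438 and 403 CPM in Vector-CM and 642, 519 and 483 CPM in FGFBP1-CM. MT-ND3, another core membrane subunit, was at 239.9, 267 and 244 CPM in Vector-CM and 371, 302 and 289 CPM in FGFBP1-CM. Neither overlapped between the groups, and FGFBP1-CM 1 was highest in both. The log2 fold change of MT-ND1 was 0.43 (SE 0.10; adjusted p = 0.0619, edgeR) and that of MT-ND3 was 0.36 (SE 0.09; adjusted p = 0.0715, edgeR). MT-ND2 was also apart, at 1016 to 1316 CPM in Vector-CM and 1335 to 1579 CPM in FGFBP1-CM, with a log2 fold change of 0.27 (SE 0.10). MT-ND5 and MT-ND6 overlapped between the groups, with log2 fold changes of 0.34 (SE 0.10) and 0.26 (SE 0.09). Unlike the other mitochondrially encoded members, MT-ND6 is annotated on the minus strand. Whether counting used the strand was not given, so its counts are uncertain.

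MT-ND4 and MT-ND4L, the pair on a common messenger RNA, had the lowest log2 fold changes of the 7 mitochondrially encoded genes of complex I. MT-ND4 was at 2461, 2776 and 2798 CPM in Vector-CM and 2748, 3012 and 2755 CPM in FGFBP1-CM. MT-ND4L was at 1015, 1084 and 1076 CPM in Vector-CM and 1066, 1115 and 1132 CPM in FGFBP1-CM. The groups overlapped for both, with log2 fold changes of 0.08 (SE 0.07) and 0.06 (SE 0.06). The count ratio of MT-ND1 to MT-ND4 was 0.144 to 0.158 in Vector-CM and 0.172 to 0.234 in FGFBP1-CM, a pair that was chosen after their values were seen and that restates the difference between their fold changes.

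MT-CYB, the cytochrome b of complex III and its only mitochondrially encoded subunit, was at 1096, 1247 and 1265 CPM in Vector-CM and 1495, 1403 and 1284 CPM in FGFBP1-CM. The groups were apart by a narrow margin, and the log2 fold change was 0.21 (SE 0.08; adjusted p = 0.149, edgeR). MT-ATP6 and MT-ATP8, the proton channel subunit of the ATP synthase and its small partner, had log2 fold changes of 0.22 (SE 0.09) and 0.21 (SE 0.10). MT-ATP6 was at 699 to 872 CPM in Vector-CM and 846 to 992 CPM in FGFBP1-CM. MT-ATP8 was at 38.3 to 48.1 CPM and 42.8 to 55.0 CPM. Both overlapped between the groups.

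**Figure D3:**
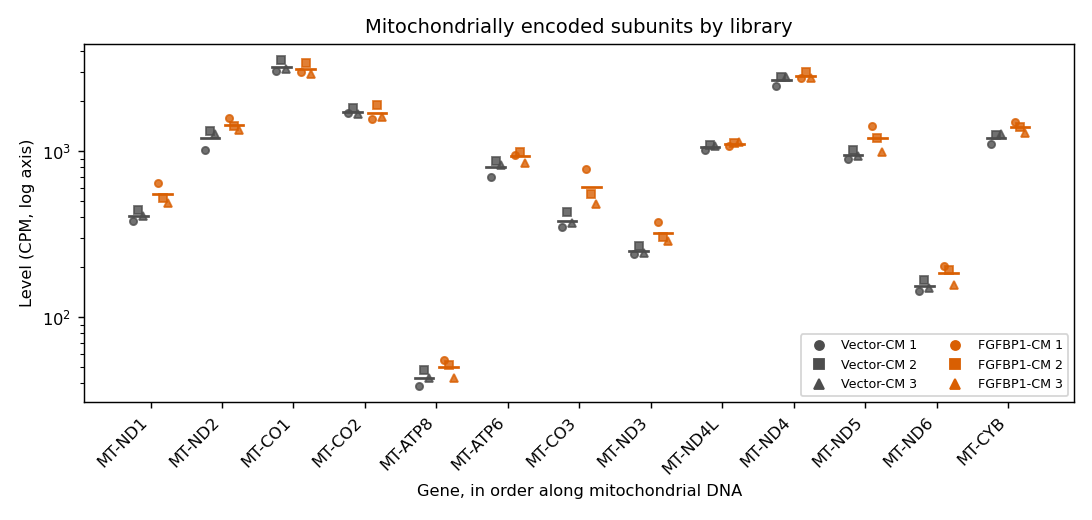
CPM of the 13 mitochondrially encoded subunits in each library on a log axis, in gene order, with the group means as short lines. For MT-CO3 the FGFBP1-CM libraries lie at 480.0 to 783 CPM, all above the Vector-CM libraries at 347 to 426 CPM, whereas for MT-CO1 and MT-CO2 the groups overlap.

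The libraries did not contribute equally to these differences. Of the 13 mitochondrially encoded genes, 8 were highest in FGFBP1-CM 1, 3 in FGFBP1-CM 2, 1 in FGFBP1-CM 3 and 1 in Vector-CM 2, and 11 were lowest in Vector-CM 1. The median deviation of their log2 CPM from the Vector-CM mean was -0.10, 0.11 and -0.01 in Vector-CM and 0.35, 0.25 and 0.08 in FGFBP1-CM. Vector-CM 2 and FGFBP1-CM 3 thus overlapped. As a share of all counts, the 13 genes took 1.30% (95% Wilson interval 1.29% to 1.30%), 1.48% (1.47% to 1.49%) and 1.38% (1.38% to 1.39%) in Vector-CM. They took 1.63% (1.62% to 1.63%), 1.60% (1.59% to 1.61%) and 1.44% (1.43% to 1.44%) in FGFBP1-CM. The shares overlapped in the same 2 libraries, and with 3 libraries against 3 an exact two-sided permutation test of such a value cannot give a p below 0.1. The nuclear members took 0.464% to 0.487% in Vector-CM and 0.473% to 0.498% in FGFBP1-CM, which also overlapped. Without Vector-CM 1 the median log2 fold change of the mitochondrially encoded genes was 0.15, and without FGFBP1-CM 1 it was 0.18.

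The other RNAs of mitochondrial DNA were not members and are given because they come from the same precursors. MT-RNR1 and MT-RNR2, the ribosomal RNAs of the mitochondrial ribosome, had log2 fold changes of -0.22 (SE 0.12) and -0.30 (SE 0.13) and overlapped between the groups. The study's methods describe both poly(A) selection and removal of ribosomal RNA. The counts of the 13 messenger RNA genes divided by those of the ribosomal RNA genes were 2.76, 2.23 and 2.43 in Vector-CM and 3.69, 2.81 and 3.46 in FGFBP1-CM. This ratio was higher in every FGFBP1-CM library than in any Vector-CM library. When the ribosomal RNA genes were added to the mitochondrial share, it was 1.77% to 2.14% in Vector-CM and 1.85% to 2.17% in FGFBP1-CM and overlapped more widely.

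The transfer RNA genes that border the messenger RNAs had few counts, and they were singled out after their values had been seen. MT-TR had 14, 12 and 4 counts in Vector-CM and 68, 29 and 21 in FGFBP1-CM. MT-TH had 19, 15 and 10 counts in Vector-CM and 78, 35 and 24 in FGFBP1-CM. MT-TG had 16, 15 and 13 counts in Vector-CM and 54, 30 and 19 in FGFBP1-CM. For these 3 genes, whose sequences are shown above, the groups did not overlap, and the log2 fold changes were 1.81 (SE 0.44), 1.47 (SE 0.37) and 1.07 (SE 0.33), with adjusted p-values of 0.068, 0.0737 and 0.105 in edgeR. These genes are 65 to 69 bases long, so a fragment counted there may also reach into its neighbour. Summed over the 14 transfer RNA genes annotated on the plus strand, the level was 2.90 to 4.85 CPM in Vector-CM and 6.42 to 16.2 CPM in FGFBP1-CM, without overlap. The 8 genes annotated on the minus strand summed to 76.7 to 89.5 CPM and 75.7 to 77.2 CPM, which overlapped. Most transfer RNA counts were thus on genes of the minus strand, 1139 to 1443 a library.

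**Figure D4:**
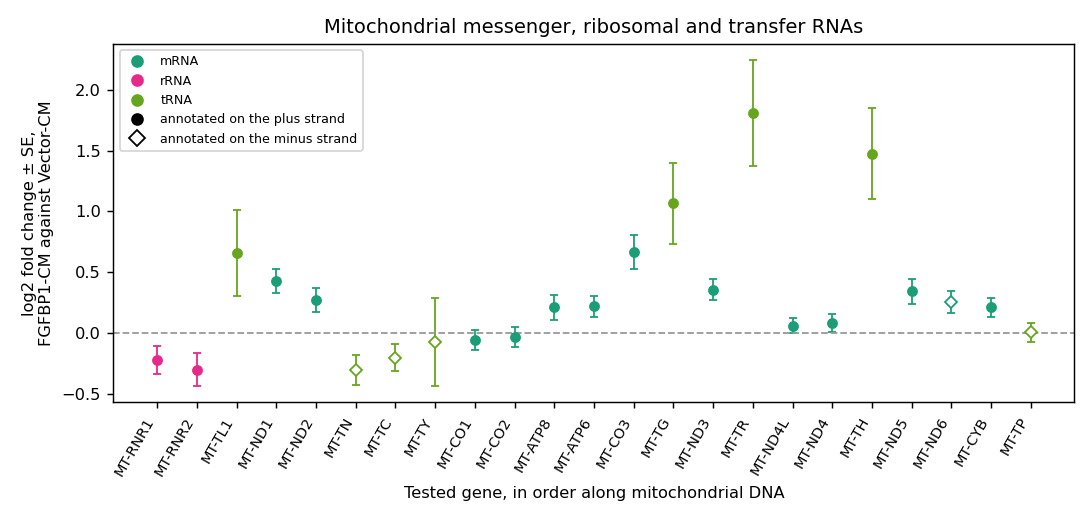
Log2 fold change with its SE for each tested RNA of mitochondrial DNA, in gene order, by kind of RNA and annotated strand, with the median of all genes tested as a dashed line. The highest values are those of MT-TR, MT-TH, MT-TG and, among the messenger RNAs, MT-CO3, while both ribosomal RNAs and MT-TN, MT-TC and MT-TY lie below 0.

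Copies of mitochondrial genes in nuclear chromosomes can resemble the members in sequence, so reads can be split between them. How alike each copy is to its member was not measured here. Of 402 such pseudogenes in the table, 8 could be tested, with a median log2 fold change of 0.17. MTATP6P1 had 1738, 1473 and 1631 counts in Vector-CM and 2727, 2131 and 2123 in FGFBP1-CM, with a log2 fold change of 0.38 and an adjusted p of 0.0557 in edgeR's test. MTND2P28 had 713 to 734 counts in Vector-CM and 878 to 1203 in FGFBP1-CM, with a log2 fold change of 0.30. MTCO1P12 had 168 to 207 counts and a log2 fold change of -0.12. The other 5 tested copies had 5 to 33 counts a library, and their log2 fold changes ran from -0.45 for MTND4P15 to 0.43 for MTND4P12, with MTCO1P28 at 0.06.

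The nuclear members of complex I had a median log2 fold change of 0.028 over 35 tested genes. They reached from -0.30 for NDUFV2 to 0.33 for NDUFC2. The 7 core subunits, those that carry the flavin and the iron-sulfur clusters and are shared with bacteria, had a median of -0.15, and the 28 accessory subunits, which surround the core, had 0.031. This division by role was made after the values had been seen. Of the core, 4 of 7 were lower without overlap and none was higher, and of the accessory subunits 4 of 28 (14.3%) were higher without overlap and none was lower, beside 12.8% higher and 13.2% lower over all genes. The accessory share higher was thus near the background.

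NDUFV1, the core subunit that binds NADH and FMN, was at 174, 177 and 167 CPM in Vector-CM and 143, 161 and 156 CPM in FGFBP1-CM. Its partner NDUFV2 was at 12.8, 13.2 and 11.99 CPM in Vector-CM and 9.07, 10.9 and 11.1 CPM in FGFBP1-CM. Both were lower in every FGFBP1-CM library, by 0.17 (SE 0.07) and 0.30 (SE 0.12) on the log2 scale, with adjusted p-values of 0.155 and 0.167 in edgeR. NDUFV1 and NDUFV2 share 423 and 771 exon bases with another gene on the same strand, so their levels are uncertain. NDUFS7, another core subunit, had a log2 fold change of -0.19 (SE 0.15) and overlapped between the groups, and NDUFS3 and NDUFS1 had values above 0, at 0.10 and 0.05.

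Among the accessory subunits the highest values were those of NDUFC2 and NDUFV3. NDUFC2, a membrane subunit, was at 14.4, 16.6 and 17.9 CPM in Vector-CM and 22.7, 17.9 and 20.5 CPM in FGFBP1-CM. NDUFV3, which sits on the NADH-binding module, was at 20.9, 18.2 and 21.0 CPM in Vector-CM and 27.4, 23.8 and 22.3 CPM in FGFBP1-CM. NDUFA5, of the arm that reaches into the matrix, was at 63.9, 62.6 and 67.9 CPM in Vector-CM and 79.7, 71.0 and 74.5 CPM in FGFBP1-CM. The groups of these 3 genes were apart, for NDUFC2 only just, with log2 fold changes of 0.33 (SE 0.11), 0.29 (SE 0.10) and 0.21 (SE 0.07) and adjusted p-values of 0.134, 0.135 and 0.117 in edgeR. NDUFS5 and NDUFA1, the accessory subunits with the highest FPKM, had log2 fold changes of 0.03 each and overlapped. NDUFC2 shares 431 exon bases with its readthrough NDUFC2-KCTD14.

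**Figure D5:**
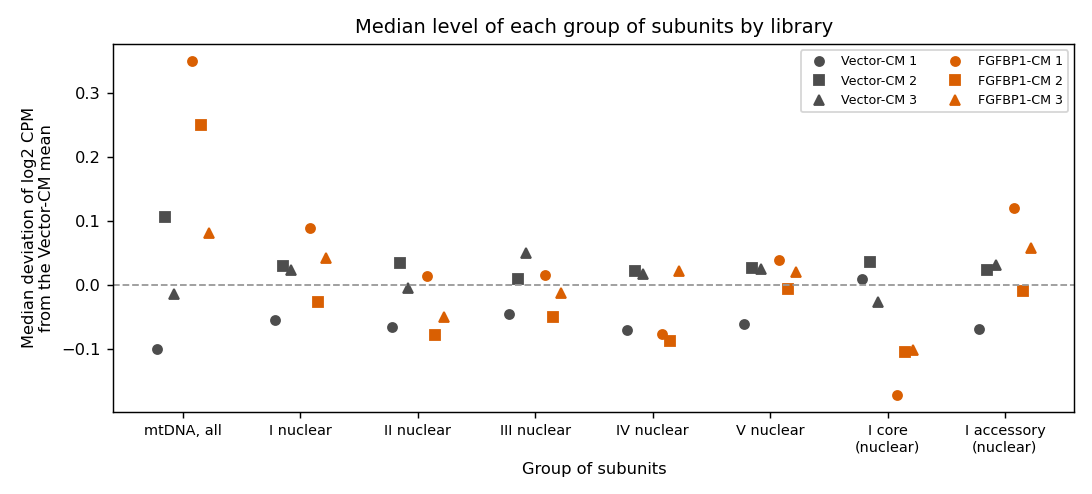
Median deviation of log2 CPM from the Vector-CM mean in each library, for the mitochondrially encoded genes, the nuclear members of each complex, and the core and accessory subunits of nuclear complex I. The core subunits lie at -0.17 to -0.10 in FGFBP1-CM and at -0.03 to 0.04 in Vector-CM, and the groups of the whole complexes overlap.

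Complex II, which is also an enzyme of the citric acid cycle, had a median log2 fold change of -0.028 over its 4 genes. SDHA, the catalytic flavoprotein, was at 43.1, 39.6 and 39.2 CPM in Vector-CM and 29.8, 33.8 and 37.7 CPM in FGFBP1-CM. It was lower without overlap, by 0.27 (SE 0.09) on the log2 scale, with an adjusted p of 0.121 in edgeR. SDHB, SDHC and SDHD overlapped between the groups, with log2 fold changes of 0.08 (SE 0.07), 0.01 (SE 0.07) and -0.07 (SE 0.07), and SDHC turned to -0.15 after the correction for GC content and length. The pseudogenes SDHAP1 and SDHAP3, copies of SDHA, had 291 to 438 and 125 to 181 counts a library and log2 fold changes of 0.01 and -0.07.

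Of complex III, UQCRC1, a core protein on the matrix side, was at 152, 155 and 148 CPM in Vector-CM and 125, 139 and 133 CPM in FGFBP1-CM. It was lower in every FGFBP1-CM library, by 0.20 (SE 0.06) on the log2 scale, with an adjusted p of 0.115 in edgeR. Its partner UQCRC2 was at 148 to 153 CPM in Vector-CM and 144 to 156 CPM in FGFBP1-CM, with a log2 fold change of -0.01 (SE 0.06). The highest value among the 9 nuclear genes of the complex was 0.17 (SE 0.17), for UQCRHL, a retrocopy of UQCRH at 3.54 to 5.01 CPM. The other nuclear genes of the complex lay between -0.08 for UQCRQ and 0.14 for UQCRB, and all overlapped.

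Complex IV had the lowest nuclear median, -0.058, with 9 of 11 tested genes below 0, beside 8235 of 16707 over all genes. At an unadjusted p under 0.05, 3 were lower (27.3%, against 10.7% of all genes) and none was higher. Only 1 was apart between the groups, and it was lower, as were 13.2% of all genes. That gene was COX6A1, the common form of subunit VIa, which was at 57.4, 59.7 and 59.3 CPM in Vector-CM and 53.0, 49.9 and 55.5 CPM in FGFBP1-CM. Its log2 fold change was -0.15 (SE 0.07), with an adjusted p of 0.208 in edgeR. COX8A was at 55.2, 62.9 and 57.7 CPM in Vector-CM and 46.4, 55.4 and 53.0 CPM in FGFBP1-CM, with a log2 fold change of -0.18 (SE 0.08). COX7A2, COX6B1 and COX7C, a small subunit with one of the highest levels of the complex, had -0.12 (SE 0.07), -0.06 (SE 0.07) and -0.01 (SE 0.06). Only COX7B and COX5A lay above 0, at 0.04 and 0.0032, and both turned below 0 after the correction for GC content and length (-0.027 and -0.016), while COX7C turned to 0.022 with library size only. COX6B2, the testis form of COX6B1, had the lowest value of any member, -1.17 (SE 0.42), but rested on 33, 24 and 16 counts in Vector-CM against 6, 21 and 8 in FGFBP1-CM, which overlapped, and its exons share 1178 bases with another gene. Without FGFBP1-CM 2 it was -1.95 (adjusted p = 0.024, edgeR), without FGFBP1-CM 1 it was -0.79 (adjusted p = 0.353, edgeR), and with limma on log2(FPKM + 1) it was -0.25.

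Complex V had a median of 0.011 over 17 tested genes and the narrowest range of the nuclear complexes, from -0.14 to 0.19. ATP5PB, the b subunit of the peripheral stalk, was at 88.5, 90.0 and 88.6 CPM in Vector-CM and 108, 96.7 and 99.0 CPM in FGFBP1-CM. It was higher without overlap, at a log2 fold change of 0.19 (SE 0.07) and an adjusted p of 0.135 in edgeR. The catalytic core was close to 0, with 0.05 (SE 0.06) for ATP5F1B and 0.0011 for ATP5F1A, both at 334 to 382 CPM. The subunit c genes ATP5MC1, ATP5MC2 and ATP5MC3 had log2 fold changes of 0.01, -0.11 and 0.02 (SE 0.07 each) and overlapped. ATP5ME had the lowest value, -0.14 (SE 0.25), at 1.47 to 2.56 CPM. The inhibitor ATP5IF1 was at 64.6 to 70.5 CPM in Vector-CM and 60.7 to 72.9 CPM in FGFBP1-CM, with a log2 fold change of 0.02 (SE 0.08).

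Promoters were examined because nuclear chain genes are known to share elements for NRF1 and GABP, the latter encoded in part by GABPA, a neighbour of ATP5PF. Of the 82 nuclear members, 65 matched a RefSeq promoter by symbol (GRCh38.p14), each running from 250 bases before to 50 after the start of the gene. The letters GCATGCGC, a core of the NRF1 element, were found on either strand in 20% of these 65 promoters and in 3.27% of all 27305. The letters CCGGAAG, an ETS element of the kind GABP binds, were in 29.2% and 10.7%, and AAGATGGC, the YY1 element, in 16.9% and 3.03%. GGGCGGG, the SP1 element, was in 29.2% and 32.9%, and TATAAA in 9.23% and 11.95%. Of 69 promoters of mitochondrial ribosomal protein genes, 42.03% held the GABP letters and 28.99% the YY1 letters, both above the members. The NRF1 letters were in 8.696% of these 69, below the members. The excess of GABP and YY1 letters over all promoters was thus not particular to the chain genes. No motif searched contains another, but CCGGAAG ends in the letters with which AAGATGGC begins, so these can overlap. The promoters of COX5B and COX6A1 (plus strand, both in the 250 bases before the RefSeq start) are shown as 2 that hold both sets of letters, in capitals.
COX5B, chr2:97645812-97646061: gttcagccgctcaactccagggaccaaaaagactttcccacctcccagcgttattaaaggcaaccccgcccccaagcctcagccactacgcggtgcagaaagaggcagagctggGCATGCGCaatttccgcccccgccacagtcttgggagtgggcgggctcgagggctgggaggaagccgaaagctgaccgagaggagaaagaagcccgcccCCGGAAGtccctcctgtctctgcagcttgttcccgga
COX6A1, chr12:120437863-120438112: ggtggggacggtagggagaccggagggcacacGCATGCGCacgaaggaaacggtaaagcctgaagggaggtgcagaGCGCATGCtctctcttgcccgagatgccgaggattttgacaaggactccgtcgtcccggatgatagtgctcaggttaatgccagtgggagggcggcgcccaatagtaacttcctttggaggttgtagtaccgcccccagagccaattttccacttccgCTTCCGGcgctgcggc
In COX5B the NRF1 letters begin 136 bases before the RefSeq start and the GABP letters 37 bases before it. In COX6A1 the NRF1 letters occur at 218 and 174 bases and the GABP letters at 16. By GENCODE 29 the last 22 printed bases of COX5B and the last 23 of COX6A1 lie inside the gene. The GABP letters of COX6A1 are among them. The median log2 fold change was -0.031 for the 13 tested members with the NRF1 letters and 0.0021 for the 50 without, and -0.020 and 0.0021 for the 19 with and the 44 without the GABP letters. The genes that hold these letters thus differed little in median from those that do not.

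Genes around the chain were read from lists of known function. Of 5 tested genes of the chain that the symbol rule does not take (COX4I1, COX7A2L, NDUFAB1, CYC1 and the cytochrome c gene CYCS), none passed the adjusted threshold, and the median was -0.052. COX4I1, the regulatory subunit of complex IV, was at 60.7 to 65.8 CPM in Vector-CM and 54.3 to 55.4 CPM in FGFBP1-CM, at -0.19 on the log2 scale (SE 0.07; adjusted p = 0.128, edgeR). CYCS was at 89.7 to 95.1 CPM in Vector-CM and 96.1 to 105 CPM in FGFBP1-CM, at 0.14 (SE 0.07; adjusted p = 0.244, edgeR). Both were apart between the groups. They were named as the lowest and the highest value of this list, in which 4 genes lay below 0 and 1 above. Their opposite directions therefore follow from that choice.

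None of the 48 tested assembly factors of the complexes passed the adjusted threshold, with 10 higher (20.8%, against 11.1% of all genes) and 2 lower (4.17%, against 10.7%) at an unadjusted p under 0.05 and a median of 0.089. Their range ran from -0.25 (SE 0.11) for ATPAF2, a chaperone of the ATP synthase, to 0.59 (SE 0.34) for COX16, at 0.502 to 1.13 CPM. Of 27 genes that replicate, transcribe and process mitochondrial DNA, none passed it, 5 were higher (18.5%) and 1 was lower (3.70%) at the unadjusted p, and the median was 0.081. TWNK, the replicative helicase, was at 15.1, 16.5 and 16.3 CPM in Vector-CM and 25.2, 18.7 and 20.9 CPM in FGFBP1-CM, at 0.44 on the log2 scale (SE 0.11; adjusted p = 0.078, edgeR). POLG, the polymerase of mitochondrial DNA, was at 93.6 to 98.0 CPM in Vector-CM and 80.1 to 86.6 CPM in FGFBP1-CM, at -0.19 on the log2 scale (SE 0.06; adjusted p = 0.122, edgeR). Each was without overlap between the groups. The 2 genes were named as the highest and the lowest value of this list, in which 20 genes lay above 0 and 7 below. Their opposite directions therefore follow from that choice.

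The 76 tested mitochondrial ribosomal protein genes had a median of 0.064, with none past the adjusted threshold and 9 higher (11.8%, near the background) and 1 lower (1.32%) at the unadjusted p. MRPS17 was highest, at 0.876 to 1.12 CPM in Vector-CM and 1.59 to 2.00 CPM in FGFBP1-CM (log2 fold change 0.87, SE 0.25), and MRPL38 was lowest, at -0.34 (SE 0.16). Of 12 regulators of mitochondrial genes, none passed it, and the range ran from -0.22 (SE 0.07) for SP1 to 0.54 (SE 0.21) for PPARGC1B, a coactivator of NRF1. Of 17 citric acid cycle genes, none passed it, 2 were higher (11.8%) and 3 lower (17.6%) at the unadjusted p, and the median was -0.043. IDH2, the mitochondrial isocitrate dehydrogenase that uses NADP, was at 45.8, 49.9 and 52.4 CPM in Vector-CM and 31.3, 44.2 and 34.7 CPM in FGFBP1-CM. It was lower in every FGFBP1-CM library, by 0.43 (SE 0.11) on the log2 scale, with an adjusted p of 0.0747 in edgeR, and DLAT, a subunit of pyruvate dehydrogenase, was highest at 0.24 (SE 0.09). The 11 tested pseudogenes of nuclear subunits all overlapped between the groups, from -0.68 for COX7A2P1 to 0.30 for NDUFA5P11, with a median of -0.065.

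The number of members past the adjusted threshold depended on the test and on the libraries kept. It was 3 of 90 with DESeq2 (MT-ND1, MT-ND3 and MT-ND5), or 3.33% against 3.50% of all genes under that test. It was 1 after a correction for GC content and length (MT-CO3), or 1.11% against 0.778%, and 9 of 95 with no filter beyond 1 count, or 9.47% against 3.64% of 38002 genes. It was 0 with the other scalings, the stricter filter and limma on FPKM. Leaving out FGFBP1-CM 1, 2 or 3 gave 1, 4 or 5 members (1.11%, 4.44% and 5.56%, against 0.421%, 5.15% and 2.34% of all genes), with MT-CO3 among them each time, and leaving out any Vector-CM library gave 0.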

How the data were processed

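LX-2 cells in Vector-CM or FGFBP1-CM (n = 3 each) were profiled by RNA sequencing, with groups and replicate numbers as in the labels. The authors aligned reads with Hisat2 2.0.5 and deposited raw counts per gene from featureCounts 1.5.0-p3. FPKM values, computed by the authors from gene length and count, were deposited beside them. The submitters' processing notes name the build hg18 and the tools DESeq2 1.16.1 and edgeR. However, 96.3% of the Ensembl identifiers of the table were found in GENCODE 29 (GRCh38), so the build of the counts is unsettled. Coordinates, lengths and exon overlaps given here are those of GENCODE 29, except that promoters are placed by the RefSeq start. Neither strandedness nor the treatment of reads on overlapping genes was given in the sources used here.

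The main test was that of edgeR 4.0.16 under R 4.3.3 (filterByExpr, TMM, quasi-likelihood F-test, group as the only term). Benjamini-Hochberg adjustment ran over 16707 genes, the threshold was 0.05, and SE is the log2 fold change divided by the square root of F. CPM used the library sizes after TMM scaling. Lists were described by counts and medians and were not tested. The deviations by library used log2 of CPM plus 0.5. Procedures were tested on simulated data. No libraries were merged, since chi-square per degree of freedom was 2.82 to 20.3 for every pair.

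The members and lists were chosen with earlier results of these data known. Named genes were all mitochondrially encoded members, all of complex II, members past the threshold, and per complex the 2 highest and 2 lowest nuclear log2 fold changes and the 2 highest FPKM, the isoform pairs of complex IV and the subunit c genes, and for each list the highest and lowest gene. Alternatives were other scalings (RLE, library size only, TMM without mitochondrial genes), all genes with at least 1 count or a mean of at least 1 CPM, DESeq2 1.42.0, limma 3.58.1 on log2(FPKM + 1) and log2(FPKM + 0.1), a block for replicate number, a loess correction (span 0.3) for GC content and length, for which 98.2% of tested genes had values, and leaving out each library. The authors' annotation columns were used only for the member rule. The values of 1 member are not reported here.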

Additional observations from a re-analysis of the deposited data

How the results depend on the processing

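Depth limits the low-count members and the transfer RNAs, and with 3 libraries a group the SE of the mitochondrially encoded genes was 0.06 to 0.14 on the log2 scale. Under all alternatives run, the median log2 fold change of the mitochondrially encoded genes stayed above 0 (0.15 to 0.31) and exceeded the nuclear median (by 0.17 to 0.31). The number of genes called among all tested was 38 with RLE scaling, 1382 with no filter beyond 1 count, 11 with a mean of at least 1 CPM, 585 with DESeq2, 1 and 5 with limma on log2(FPKM + 1) and log2(FPKM + 0.1), 130 after the correction for GC content and length, 3630 at an unadjusted p under 0.05, and 4 to 883 on leaving out a library (lowest without Vector-CM 2 or 3, highest without FGFBP1-CM 2). Higher genes made up 24 of the 38, 56 of the 130, 833 of the 1382 and 322 of the 585, against 9 of 20. The number of members called was 9 with no filter (9.47%, against 3.64% of all genes) and 3 with DESeq2 (3.33% against 3.50%). It was 1 after the GC and length correction (1.11% against 0.778%), 20 at the unadjusted p, and 0 to 5 on leaving out a library. The cause of these changes was not tested.

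The replicate numbers did not pair the libraries: deviations of same-numbered libraries from their group means correlated at -0.11, -0.02 and 0.15 over 15033 genes. With the replicate number as a block, 90 genes were called (51 higher) and 0 members. With the GC and length correction and the block, it was 353 genes (95 higher) and 2 members, MT-ND1 and MT-CO3. These members were 2.22% of those tested, near the 2.11% of all genes. The complex II median was -0.13 with the GC and length correction, both without and with the block (-0.132 and -0.128), and the complex III median ran from -0.029 to 0.062 on leaving out a library. The log2 ratio of the mitochondrial share of counts was 0.17, and 0.055 with the ribosomal RNA genes added.

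Some members changed sign. With the GC and length correction, and with the block added, they were ATP5MC3 (-0.053 and -0.052), ATP5MK (0.018 and 0.019), COX5A (-0.016 and -0.017), COX6B1 (0.00059 and 0.00059), COX7B (-0.027 and -0.026), MT-CO2 (0.018 and 0.016), SDHC (-0.15 and -0.15) and UQCRH (0.046 and 0.046). With library size only, ATP5MK was 0.029, COX7C 0.022, MT-CO2 0.0010 and UQCRH 0.014. With limma at either pseudocount, ATP5MK was 0.029 in both, COX7C 0.022 in both, and UQCRH 0.013 in both. With no filter, ATP5MK was 0.0073 and COX7C 6.1e-05. On leaving out a library, the ranges that crossed 0 were -0.034 to 0.058 for ATP5MC1, -0.012 to 0.054 for ATP5MC3, -0.264 to 0.073 for ATP5ME, -0.038 to 0.043 for ATP5MK, -0.024 to 0.046 for COX5A, -0.0067 to 0.12 for COX7B, -0.034 to 0.022 for COX7C, -0.13 to 0.011 for MT-CO1, -0.13 to 0.024 for MT-CO2, -0.044 to 0.10 for NDUFA1, -0.016 to 0.068 for SDHC and -0.048 to 0.0049 for UQCRH. Of 44 members followed through 17 alternatives each, 670 values kept direction and side of the threshold and 51 changed sign. Another 25 values passed the threshold, 23 of them of mitochondrially encoded genes. Every mitochondrially encoded gene was followed, but only a selection of nuclear members, and the alternatives reuse the same libraries. The share of all genes past the threshold ran from 0.00599% with limma on log2(FPKM + 1) to 5.15% without FGFBP1-CM 2. DESeq2 gave no adjusted p for ATP5ME and COX6B2, and the unadjusted threshold applies only to counts of genes.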
